A study of Homo sapiens with 6 samples.

Results

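Tropomyosins and the proteins that turn over actin filaments are described here in KGN cells after knockdown of OGT. The set has 10 genes of the 20036 in the deposited table: the tropomyosin genes TPM1, TPM2, TPM3 and TPM4, the cyclase-associated protein genes CAP1 and CAP2, the cofilin genes CFL1 and CFL2, and the profilin genes PFN1 and PFN2. They were taken by name and chosen by their FPKM values in the siOGT1, siOGT2 and siNC libraries, since results of these same data were known when the set was drawn up. TPM4 had the largest rise of all tested genes with both siRNAs and CAP1 a large fall with siOGT1, so these values are described without a p-value. For the other 8 genes the p-values lend no independent support to the choice of the set.

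KGN is an established human line from an ovarian granulosa cell tumour, labelled wild type (WT). Cells were transfected with Lipofectamine 3000 and an siRNA, a short RNA duplex that lowers the mRNA it matches, and were harvested 48 hours later. The groups were siOGT1 and siOGT2, each an siRNA against OGT mRNA, and siNC, taken here as the control siRNA, with 2 libraries per group and 6 in all. Nothing in the labels says that the libraries of a group came from separate cultures, so the spread between them may be technical alone. OGT encodes O-GlcNAc transferase, which attaches N-acetylglucosamine to nuclear and cytosolic proteins. The labels state the question as how the transcriptome changes when OGT is knocked down.

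Actin filaments grow by adding monomers at one end and lose them at the other. Tropomyosins are coiled coils that lie along the filament and set which motors and regulators can reach it, cofilins sever and disassemble old filaments, cyclase-associated proteins help cofilin and recharge the released monomers with ATP, and profilins deliver ATP-actin to growing ends. In granulosa cells, as in other epithelium-like cells, the actin cytoskeleton supports cell shape, adhesion and junctions.

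Levels are FPKM, fragments scaled to the length of the gene and to the size of the library. Tests are limma's, on log2(FPKM + 1) over the 10547 genes with a mean of at least 1 FPKM, two-sided, and a gene passed at an adjusted p (Benjamini-Hochberg over those genes) under 0.05. All 10 members were above that minimum in every group. Whole reads could be worked out from the steps in the FPKM values, and library totals ran from 16756649 to 21416489 reads. The median tested gene had 773 to 986 reads per library. TPM2, the lowest member, had 422 to 526 reads per library and TPM4 had 13128 to 35516. OGT itself stood at 13.8 and 12.9 FPKM with siOGT1 and 14.3 and 14.7 with siOGT2, against 22.4 and 23.4 with siNC, or 58.3% and 63.3% of the siNC mean. Of 10 granulosa markers 4 passed the minimum, NR5A1, AMH, FOXL2 and GATA4, while FSHR had a value of 0 in every library and CYP19A1 was at most 0.00554 FPKM in any group mean. The 10 granulosa markers summed to 34.9 to 36.7 FPKM with siOGT1 and 34.3 to 35.2 with siOGT2, against 33.3 to 33.9 with siNC, and NR5A1 was called higher with siOGT1 (limma, adjusted p = 0.0494). The 6 muscle markers DES, MYH11, MYOD1, MYOG, TNNT2 and CKM summed to 0.246 to 0.408 FPKM with siOGT1 and 0.217 to 0.279 with siOGT2, against 0.201 to 0.518 with siNC, and MYOD1 was listed at 0. The 3 epithelial markers summed to 0.693 to 0.748 FPKM with siOGT1 and 0.744 to 1.17 with siOGT2, against 0.716 to 0.757 with siNC. The 4 endothelial markers summed to 0.782 to 0.894 FPKM with siOGT1 and 1.01 to 1.08 with siOGT2, below the 1.16 to 1.33 with siNC, and any part of the granulosa and endothelial sums in the results was not tested.

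The sequences that go with the main findings are short stretches in TPM4, CAP1, CFL2 and PFN2. An earlier look at these data had picked out the heptamers TCGGAGA and GCTCTTA in 3′ untranslated regions, so finding them here lends no support to either. In all annotated transcripts of GENCODE release 29, read on the transcript's own strand, TCGGAGA was present in the 3′ untranslated region of 406 of 10499 tested genes (3.87%) and GCTCTTA in 1263 (12.0%). All 10 members were searched. TPM4 held TCGGAGA, in 11 of its 12 transcripts with such a region. CAP1, CFL2 and PFN2 held GCTCTTA, in 4 of 6, 2 of 6 and 9 of 17 transcripts. TPM1, TPM2, TPM3, CAP2, CFL1 and PFN1 held neither. The siRNA sequences are not used here, so the heptamers were not compared with them. Each stretch is given 5′ to 3′ on the strand of the gene with the heptamer in capitals and 10 bases on either side, shown because these 4 members are the ones with either heptamer (GENCODE release 29, GRCh38; chr19:16101483-16101509 plus strand, chr1:40071615-40071641 plus strand, chr14:34711601-34711627 minus strand and chr3:149966437-149966463 minus strand).
TPM4: atattttgtaTCGGAGAagctttgagc
CAP1: ctacctttttGCTCTTAaaactgcttc
CFL2: gaagcaggaaGCTCTTAttgcttattt
PFN2: ggggaaaattGCTCTTAaactttccta

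The promoter of TPM4 held a CArG box, the element that serum response factor binds in many actin cytoskeleton genes. RefSeq promoters (GRCh38.p14, 250 bases before to 50 after a start site) were found for 9 of the 10 members, PFN2 being the exception, with 16 start sites in all. The box was searched by its consensus, which is the same pattern on both strands, and was present in 1 of these 16 and in 1.29% of all 35116 promoters. It lay 173 to 164 bases upstream of 1 of the 3 TPM4 start sites, and is printed with 10 bases on either side and the box in capitals (chr19:16067355-16067384, plus strand).
TPM4 promoter: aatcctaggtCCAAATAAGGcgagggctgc

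TPM4 was higher with both OGT siRNAs, at closely similar levels. TPM4 (ENSG00000167460, GRCh38 chromosome 19, 16067021 to 16103005, plus strand) encodes a tropomyosin made in most non-muscle cells, where it lies on stress fibres and other filaments. It stood at 136.4 and 134.0 FPKM with siOGT1 and at 135.3 and 135.9 FPKM with siOGT2, against 52.8 and 52.7 FPKM with siNC. All 4 knockdown libraries lay between 134.0 and 136.4 FPKM, far above both siNC libraries. The means were 135.2 ± 1.69 and 135.6 ± 0.459 FPKM against 52.77 ± 0.0405 (SD, n = 2 each), 256% and 257% of siNC. The log2 fold change was 1.34 (SE 0.0277) with siOGT1 and 1.35 (SE 0.0277) with siOGT2, in each case rank 1 among the rises of the 10547 genes. These values chose the gene and are a description. In bulk RNA, a change in the share of cells that make a transcript and a change in transcript per cell cannot be told apart.

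Between the siRNAs, the log2 difference of siOGT1 minus siOGT2 was -0.004 (SE 0.0277), and its sign turned under other scalings. In reads, TPM4 had 31071 and 35516 with siOGT1 and 30340 and 28187 with siOGT2, against 13168 and 13128 with siNC.

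**Figure D1:**
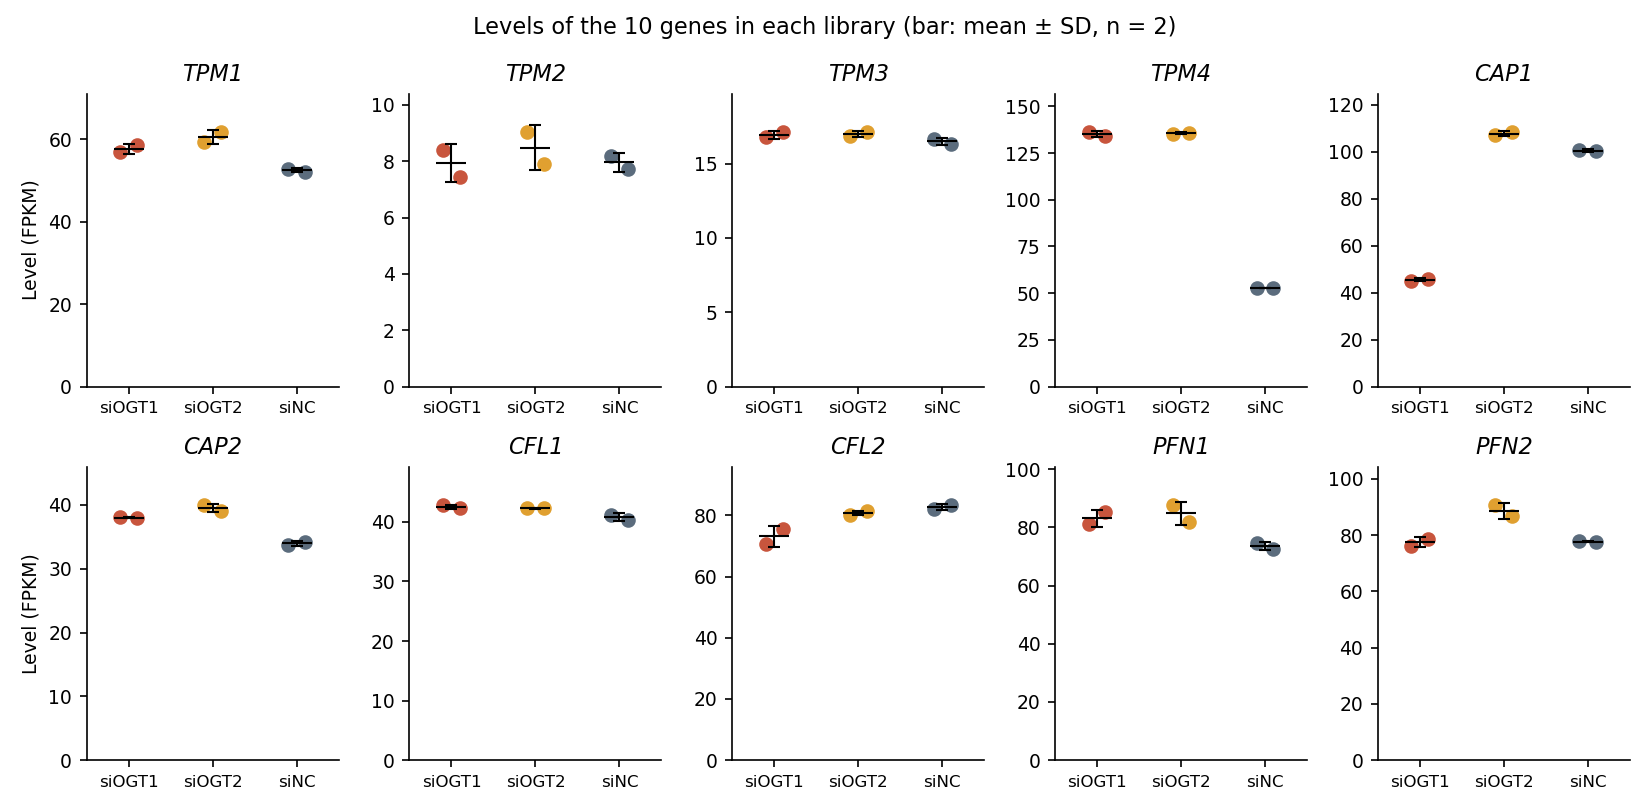
Level in FPKM (y axis, from 0) of each of the 10 genes in siOGT1, siOGT2 and siNC libraries; points are libraries, the horizontal mark and bars are mean ± SD (n = 2). TPM4 is near 135 FPKM in all 4 knockdown libraries and near 53 in both siNC libraries, and CAP1 is near 45 FPKM with siOGT1 only.

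The other tropomyosins moved little. TPM1 (ENSG00000140416, chromosome 15, 63042632 to 63071915, plus strand), whose longer products strengthen stress fibres, stood at 56.8 and 58.5 FPKM with siOGT1 and 59.3 and 61.8 with siOGT2, against 52.8 and 52.1 with siNC. Every knockdown library was above both siNC libraries. TPM1 rose by 0.13 on the log2 scale with siOGT1 (SE 0.0329, adjusted p = 0.0217) and by 0.20 with siOGT2 (SE 0.0329, adjusted p = 0.00162). The siOGT1 call ended under 6 of 17 other settings, among them a trimmed-mean scaling (adjusted p = 0.0644) and the fits without siNC replicate 1 (0.0881), siNC replicate 2 (0.121) or siOGT1 replicate 2 (0.101). The siOGT2 call held in all 17.

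TPM3 (ENSG00000143549, chromosome 1, 154155304 to 154194648, minus strand), a tropomyosin of both slow muscle and non-muscle cells, stood at 16.8 and 17.1 FPKM with siOGT1 and 16.8 and 17.1 with siOGT2, against 16.6 and 16.3 with siNC. All 4 knockdown libraries were above siNC, by a gap smaller than the spread within a group. The log2 fold change was 0.04 with each siRNA (95% intervals -0.0429 to 0.119 and -0.0413 to 0.12; adjusted p = 0.513 and 0.423). The sign for siOGT2 turned under the trimmed-mean scaling.

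TPM2 (ENSG00000198467, chromosome 9, 35681992 to 35690121, minus strand), abundant in muscle and present in many other contractile cells, stood at 8.41 and 7.45 FPKM with siOGT1 and 9.05 and 7.91 with siOGT2, against 8.20 and 7.72 with siNC. The 3 groups overlapped. Its log2 fold changes of -0.01 and 0.08 did not pass (95% intervals -0.164 to 0.152 and -0.0783 to 0.238; adjusted p = 0.967 and 0.408).

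Because TPM4 alone moved far, the makeup of the tropomyosin mRNAs differed. Summed over the 4 genes, tropomyosin mRNA stood at 217.8 ± 0.919 FPKM with siOGT1 and 221.6 ± 1.56 with siOGT2, against 129.7 ± 1.06 with siNC (SD, n = 2 each). TPM4 made up 61.7 to 62.5% of that sum with siOGT1 and 61.0 to 61.4% with siOGT2, against 40.5 to 40.9% with siNC. TPM1 made up 26.0 to 26.9% with siOGT1 and 26.9 to 27.7% with siOGT2, against 40.4 to 40.5% with siNC. The share of TPM1 was thus lower in the knockdown libraries while its level was higher. The sum of TPM1, TPM2 and TPM3 was 81.97 and 83.1 FPKM with siOGT1 and 85.22 and 86.8 with siOGT2, against 77.59 and 76.15 with siNC. No test was made of these sums and shares, since TPM4 enters them. Sums and shares across genes also depend on the gene lengths that the FPKM values were divided by. At the exon lengths of GENCODE release 29 the siNC means would be 75.65 FPKM for TPM4 and 56.05 for TPM1, no longer nearly equal. Each gene makes many isoforms, with 34, 12, 23 and 24 annotated transcripts for TPM1 to TPM4, and gene-level FPKM does not tell them apart.

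**Figure D2:**
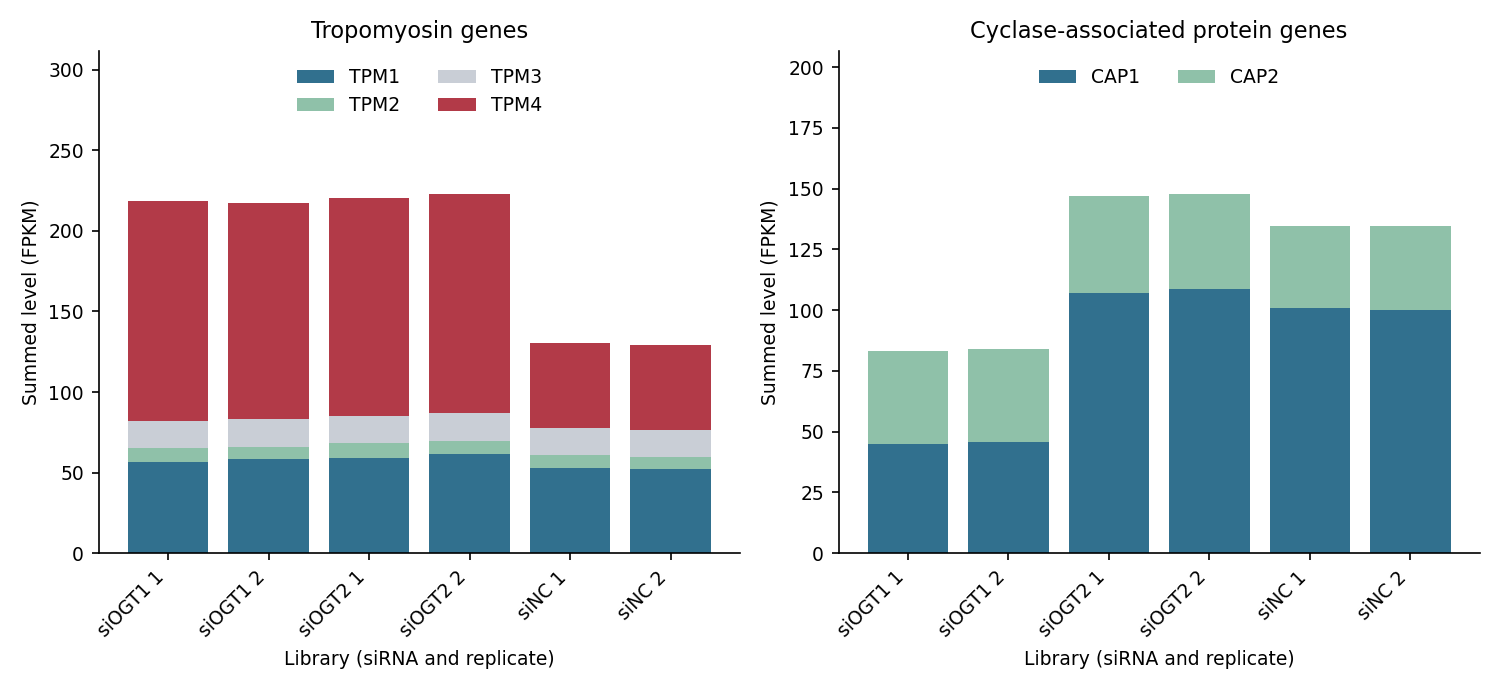
Summed level in FPKM (y axis, from 0) of the tropomyosin genes (left) and of CAP1 and CAP2 (right) in each of the 6 libraries, stacked by gene. The tropomyosin columns of the 4 knockdown libraries are taller by TPM4, and the siOGT1 columns at right are shorter by CAP1.

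CAP1 was low with siOGT1 and not with siOGT2. CAP1 (ENSG00000131236, chromosome 1, 40040233 to 40072649, plus strand) encodes the cyclase-associated protein of most cell types, which works with cofilin at the end of the filament that loses monomers. It stood at 45.04 and 45.91 FPKM with siOGT1 and 107.0 and 108.6 with siOGT2, against 101.0 and 100.2 with siNC. The siOGT1 libraries lay far below the other 4, and the siOGT2 libraries slightly above siNC. The siOGT1 mean was 45.2% of siNC (log2 fold change -1.13, SE 0.0287), rank 15 among the falls of all tested genes. Against siOGT2 the log2 difference was -1.23 (SE 0.0287), rank 4 among the falls in that comparison. These values were known when the set was drawn up, and are a description.

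With siOGT2, CAP1 stood at 107% of siNC (log2 fold change 0.10, SE 0.0287), likewise a description. The model's call for it ended under 7 of 17 other settings, namely equal sums, the trimmed-mean scaling, no intensity trend, and any 1 siNC or siOGT2 library left out.

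CAP2 (ENSG00000112186, chromosome 6, 17393216 to 17557792, plus strand), the paralog best known from heart and skeletal muscle, stood at 38.1 and 37.9 FPKM with siOGT1 and 39.95 and 39.05 with siOGT2, against 33.7 and 34.3 with siNC. Both knockdown groups were above siNC without overlap. CAP2 rose by 0.16 on the log2 scale with siOGT1 (SE 0.0311, adjusted p = 0.00818) and by 0.21 with siOGT2 (SE 0.0311, adjusted p = 0.00102). The siOGT1 call ended without siNC replicate 1 (adjusted p = 0.0664). The difference between the siRNAs in CAP2 did not pass (log2 difference -0.05, 95% interval -0.123 to 0.0164, adjusted p = 0.283).

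With CAP1 low and CAP2 slightly high, CAP2 made up 45.2 to 45.8% of the summed CAP1 and CAP2 level with siOGT1 and 26.4 to 27.2% with siOGT2, against 25.0 to 25.5% with siNC. The sum itself was 83.5 ± 0.474 FPKM with siOGT1 and 147.3 ± 0.566 with siOGT2, against 134.7 ± 0.212 with siNC (SD, n = 2 each). The gene lengths enter this sum and these shares too.

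The cofilins parted as well, by less. CFL2 (ENSG00000165410, chromosome 14, 34706769 to 34714823, minus strand), named for its role in muscle, stood at 70.69 and 75.49 FPKM with siOGT1 and 80.25 and 81.32 with siOGT2, against 81.95 and 83.28 with siNC. The siOGT1 libraries were the lowest, and the siOGT2 libraries lay just under siNC. CFL2 fell by 0.18 on the log2 scale with siOGT1 (SE 0.0356, adjusted p = 0.00948), which no longer passed with siNC replicate 2 left out (adjusted p = 0.073). With siOGT2 it was at 97.8% of siNC and did not pass (log2 fold change -0.03, 95% interval -0.112 to 0.0483, adjusted p = 0.517). The siOGT1 minus siOGT2 difference of -0.14 passed (adjusted p = 0.024), but not without siOGT1 replicate 1 (log2 difference -0.10, adjusted p = 0.114), siOGT2 replicate 1 (0.0821) or siOGT2 replicate 2 (0.133).

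CFL1 (ENSG00000172757, chromosome 11, 65823022 to 65862026, minus strand), the non-muscle cofilin, stood at 42.8 and 42.3 FPKM with siOGT1 and 42.25 and 42.32 with siOGT2, against 41.2 and 40.3 with siNC. The knockdown libraries were all slightly higher. Neither change passed (log2 fold changes 0.06 and 0.05, 95% intervals -0.00903 to 0.128 and -0.0172 to 0.119; adjusted p = 0.214 and 0.219).

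Profilin 1 was higher with both siRNAs and profilin 2 with siOGT2. PFN1 (ENSG00000108518, chromosome 17, 4945652 to 4949061, minus strand), the profilin of nearly all cells, stood at 81.0 and 85.2 FPKM with siOGT1 and 87.6 and 81.96 with siOGT2, against 74.5 and 72.6 with siNC. All 4 knockdown libraries were above siNC. PFN1 rose by 0.17 on the log2 scale with siOGT1 (SE 0.0397, adjusted p = 0.0163) and by 0.20 with siOGT2 (SE 0.0397, adjusted p = 0.00446). The siOGT1 call ended under 5 of 17 settings, 3 of them without siNC replicate 1 (adjusted p = 0.0589), siNC replicate 2 (0.108) or siOGT1 replicate 2 (0.0844).

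PFN2 (ENSG00000070087, chromosome 3, 149964904 to 150050788, minus strand), the profilin most abundant in neurons, stood at 76.2 and 78.8 FPKM with siOGT1 and 90.6 and 86.7 with siOGT2, against 77.8 and 77.5 with siNC. The siOGT1 libraries straddled siNC and the siOGT2 libraries were above both groups. PFN2 rose by 0.19 on the log2 scale with siOGT2 (SE 0.033, adjusted p = 0.00248), and with siOGT1 its log2 fold change was -0.003 (95% interval -0.0776 to 0.0711, adjusted p = 0.96). The siOGT1 minus siOGT2 difference was -0.19 (SE 0.033, adjusted p = 0.00439) and passed in all 17 other settings.

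**Figure D3:**
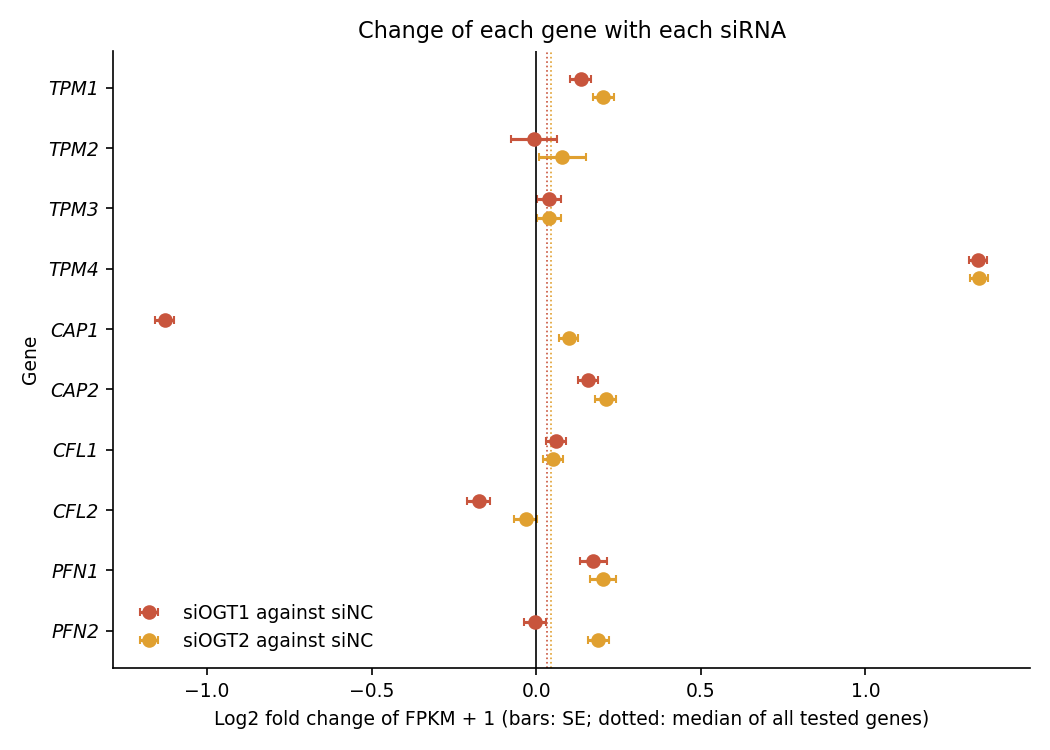
Log2 fold change of FPKM + 1 (x axis; bars are SE) of each gene with siOGT1 and with siOGT2, each against the same 2 siNC libraries; dotted lines are the medians of all 10547 tested genes. TPM4 lies near 1.34 with both siRNAs, CAP1 near -1.13 with siOGT1 only, and the other changes lie between -0.18 and 0.21.

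Counted over the set, 4 members were called higher with siOGT1 (TPM1, TPM4, CAP2 and PFN1) and 2 lower (CAP1 and CFL2), where 17.6% of all tested genes were called, 9.51% higher and 8.1% lower. With siOGT2, 6 were called higher (TPM1, TPM4, CAP1, CAP2, PFN1 and PFN2) and 0 lower by limma, where 35.5% of all tested genes were called, 22.1% higher and 13.4% lower. Of the 4 members that did not pass with siOGT2, 0 had an unadjusted p under 0.05 and 0 passed by voom on recovered reads. These contrasts chose the set, so nothing is read from the counts. The median log2 fold change of the 10 members was 0.05 with siOGT1 and 0.14 with siOGT2, beside 0.03 and 0.05 over all tested genes. Without siNC replicate 1, 3 members were called with siOGT1 (1 higher, 2 lower), and without siNC replicate 2 also 3 (2 higher, 1 lower). The shares of all tested genes above are those of the main fit only. The siOGT1 and siOGT2 comparisons use the same siNC libraries, so likeness between them is in part shared controls. Over all tested genes 1003 were higher and 854 lower with siOGT1, and 2329 higher and 1411 lower with siOGT2. Under the trimmed-mean scaling that balance turned, to 548 higher and 1008 lower with siOGT1 and 1374 higher and 1865 lower with siOGT2, while 3 members were higher and 2 lower with siOGT1 and 5 were higher with siOGT2.

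Between the siRNAs 3 members were lower with siOGT1 than with siOGT2 (CAP1, CFL2 and PFN2) and 0 higher by limma, by voom or at an unadjusted p under 0.05, where 16.6% of all tested genes were called, 8.35% higher and 8.24% lower. CAP1 was picked with that difference known. These are also the 3 members that held GCTCTTA, a heptamer itself picked on these data and present in 12.0% of tested genes. A link was not tested. Against siNC, PFN2 was nearly level with siOGT1 (log2 fold change -0.003). For TPM1 and TPM2 the log2 differences of -0.07 and -0.09 did not pass (adjusted p = 0.189 and 0.455), and for TPM3, CFL1 and PFN1 the log2 differences were -0.002, 0.01 and -0.03 (adjusted p = 0.983, 0.885 and 0.681).

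In the order of levels, TPM4 was first of the 10 genes with siOGT1 and with siOGT2, and had rank 5 with siNC. With siNC the order ran CAP1 (100.6 FPKM), CFL2 (82.62), PFN2 (77.65), PFN1 (73.53), TPM4 (52.77), TPM1 (52.43), CFL1 (40.78), CAP2 (33.99), TPM3 (16.49) and TPM2 (7.96). TPM4 and TPM1 did not differ there beyond their spread. With siOGT1, CAP1 had rank 6 at 45.47 FPKM, between TPM1 at 57.65 and CFL1 at 42.53. PFN1 at 83.09 and PFN2 at 77.49 FPKM were close there, and with siOGT2 they stood at 84.77 and 88.68 FPKM with overlapping libraries. This order depends on the gene lengths that the FPKM values were divided by. From the steps in the values these were 12375 bases for TPM4 and 15130 for TPM3, where the joined exons of GENCODE release 29 span 8632 and 8389. At the release 29 lengths the siNC means would be 75.65 FPKM for TPM4, 56.05 for TPM1, 75.54 for PFN2 and 29.74 for TPM3. For CFL2 and PFN1 the length could be read only up to a common factor, so no such value is given. On the log2(FPKM + 1) scale the length also has a small effect on changes between groups, through the added 1. Release 29 names 10 pseudogenes of PFN1, 8 each of CFL1 and TPM3, and 1 each of TPM4, CAP1 and CAP2; how alike they are and how many reads they share was not measured, so these levels are uncertain to that extent. The strand setting of the counting is unknown here, and genes listed in the table overlap CAP1, CFL1 and PFN1 on the other strand (PPT1, SNX32 and MUS81, and ENO3), and ANKUB1 overlaps PFN2 on the same strand.

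The 5 genes whose pattern over the 6 libraries was most like that of TPM4 were ANXA7, ZW10, CHST3, B4GALT1 and ZDHHC16. Likeness was Pearson's r of log2(FPKM + 1) over 6 libraries, among the 658 other tested genes whose range was at least 0.5 on that scale, and is a description. The r values ran from 0.9923 for ZDHHC16 to 0.9964 for ANXA7, and 42 genes were above 0.9. Their rises were smaller than that of TPM4. ANXA7, an annexin gene, stood at 46.39 and 48.08 FPKM with siOGT1 and 48.62 and 47.27 with siOGT2, against 31.57 and 31.63 with siNC. ZW10, a gene of the kinetochore and of vesicle traffic, had means of 18.49 FPKM with siOGT1 and 19.14 with siOGT2, against 12.97 with siNC. CHST3, B4GALT1 and ZDHHC16, a sulfotransferase, a galactosyltransferase and a palmitoyltransferase gene, stood at 144 to 153% of siNC with siOGT1 and 145 to 158% with siOGT2. By the same measure, applied to CAP1 after its values were seen, the nearest were ADAM10, GTPBP4, POLR1F, DUSP3 and UBQLN2, with r from 0.9973 to 0.9997 and 87 genes above 0.9. POLR1F, a subunit of RNA polymerase I, was at 15.09 and 13.97 FPKM with siOGT1 and 43.82 and 44.71 with siOGT2, against 43.06 and 41.9 with siNC.

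Other genes of the actin cytoskeleton were called higher more often than lower, by small amounts. In 7 lists with 89 genes, 74 were tested, of which 20 rose and 4 fell with siOGT1 and 33 rose and 3 fell (TBCEL, DAAM1 and MRTFA) with siOGT2. The background was 9.51% higher and 8.1% lower of all tested genes with siOGT1, and 22.1% and 13.4% with siOGT2. The counts of the single lists below stand beside this same background, and nothing is read from any 1 list. The median log2 fold change of the 74 genes was 0.07 with siOGT1 and 0.12 with siOGT2, beside 0.03 and 0.05 over all tested genes. The counts were smaller under several settings, and some calls of single genes given below were lost too. Under the trimmed-mean scaling these were PAK2, ARPC3, SSH1, TAGLN and TAGLN2 with siOGT2, and TAGLN with siOGT1, besides those stated below. The trimmed-mean scaling gave 13 higher and 4 lower with siOGT1, and 19 higher and 7 lower with siOGT2. With no filter on low values 88 of the list genes were tested. Of these, 11 were higher and 2 lower with siOGT1, and 19 higher and 1 lower with siOGT2. Over all 17114 genes then tested, 498 were higher and 640 lower with siOGT1. The background shares above are those of the main fit only. Without siNC replicate 1 the counts were 12 higher and 3 lower with siOGT1, and 19 higher and 1 lower with siOGT2. Without siNC replicate 2 they were 9 higher and 2 lower with siOGT1, and 19 higher and 0 lower by limma with siOGT2. For siOGT1, they were 13 higher and 2 lower without siOGT1 replicate 1, and 10 higher and 4 lower without siOGT1 replicate 2. For siOGT2, they were 21 higher and 1 lower without siOGT2 replicate 1, and 19 higher and 1 lower without siOGT2 replicate 2.

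Of 12 other actin severing and disassembly genes, 4 rose with siOGT1 and 7 with siOGT2. With siOGT2 the count was 4 higher and 1 lower under the trimmed-mean scaling, and 3 higher with no filter, without siNC replicate 1 or without siOGT2 replicate 2. MICAL2, which oxidises actin and so takes filaments apart, stood at 23.70 ± 0.456 FPKM with siOGT1 and 24.91 ± 0.0916 with siOGT2, against 18.31 ± 0.0529 with siNC (SD, n = 2 each, as for the genes that follow). It rose by 0.36 and 0.42 on the log2 scale (limma, adjusted p = 0.000126 and 2.21e-05). WDR1, a cofactor of cofilin, stood at 21.69 ± 0.095 FPKM with siOGT1 and 22.56 ± 0.586 with siOGT2, against 17.78 ± 0.209 with siNC (adjusted p = 0.000799 and 0.000169). DSTN, which encodes destrin, the close relative of the cofilins, stood at 98.95 ± 0.896 FPKM with siOGT1 and 99.56 ± 1.6 with siOGT2, against 86.53 ± 1.99 with siNC (adjusted p = 0.00255 and 0.00119). These 6 calls held in all 17 other settings.

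The list of cofilin kinases and phosphatases also holds PAK and ROCK kinases, which act upstream of the cofilin kinases. Of its 11 tested genes, 2 rose (PAK2 and SSH3) and 1 fell (TESK1) with siOGT1. With siOGT2, 4 rose (SSH3, PAK2, SSH1 and ROCK2). With siOGT1 the number higher was 0 by limma without siNC replicate 1 or siOGT1 replicate 2, and 1 without siNC replicate 2 or siOGT1 replicate 1. With siOGT2 it was 1 under the trimmed-mean scaling and with any 1 siNC or siOGT2 library left out. TESK1, a kinase that can inactivate cofilin, fell to 5.483 ± 0.626 FPKM with siOGT1 and was at 6.837 ± 0.233 with siOGT2, against 7.455 ± 0.358 with siNC (adjusted p = 0.0044 and 0.238). The phosphatase gene SSH3 stood at 3.374 ± 0.112 FPKM with siOGT1 and 3.475 ± 0.204 with siOGT2, against 2.717 ± 0.00597 with siNC (adjusted p = 0.0236 and 0.00752). Its siOGT1 call was lost with any 1 siOGT1 or siNC library left out (adjusted p up to 0.118), and its siOGT2 call without siOGT2 replicate 2 (0.0579). The kinase gene PAK2 rose by 0.16 with siOGT1 (adjusted p = 0.0134), not without siNC replicate 1 or siOGT1 replicate 2 (up to 0.101), and by 0.12 with siOGT2 (adjusted p = 0.0214), not without siOGT2 replicate 1 or either siNC library (up to 0.128). SSH1 rose by 0.13 with siOGT2 (adjusted p = 0.0391), a call lost with any 1 of the 6 libraries left out (up to 0.164).

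Of 9 tropomyosin partners at the filament, 3 rose with siOGT1 and 6 with siOGT2. With siOGT1 the count was 0 by limma without siNC replicate 2, and 1 without either siOGT1 library. With siOGT2 it was 2 under the trimmed-mean scaling and without siNC replicate 2 or either siOGT2 library, and 3 without siNC replicate 1. The calponin gene CNN2 stood at 15.14 ± 0.139 FPKM with siOGT1 and 17.32 ± 0.714 with siOGT2, against 12.46 ± 0.986 with siNC (adjusted p = 0.00884 and 0.000296). Its siOGT1 call was lost without siNC replicate 2 (adjusted p = 0.0626). The troponin gene TNNT1 stood at 4.416 ± 0.0813 FPKM with siOGT1 and 4.918 ± 0.253 with siOGT2, against 3.575 ± 0.211 with siNC (adjusted p = 0.019 and 0.00135). Its siOGT1 call was lost without either siOGT1 library or siNC replicate 2 (up to 0.121). TAGLN, a transgelin gene, rose by 0.13 with siOGT1 and 0.12 with siOGT2 (adjusted p = 0.0385 and 0.0381), but not with siOGT1 when any 1 library was left out (up to 0.149), nor with siOGT2 without any 1 siNC or siOGT2 library (up to 0.132). Its relative TAGLN2 rose by 0.13 with siOGT2 (adjusted p = 0.0147), not without siNC replicate 2 or either siOGT2 library (up to 0.119).

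Of 7 monomer-binding and capping genes, 2 rose with each siRNA and 1 fell with siOGT2. With siOGT1 the count was 0 by limma under the trimmed-mean scaling, with no filter, with no intensity trend, and without either siNC library or siOGT1 replicate 2, and 1 without any other library. With siOGT2 the number higher was 1 under the trimmed-mean scaling and without siNC replicate 2 or siOGT2 replicate 2, and 0 with no filter. TMSB10, a thymosin that holds actin monomers, stood at 1421 ± 103 FPKM with siOGT1 and 1539 ± 114 with siOGT2, against 1225 ± 68.5 with siNC (adjusted p = 0.0446 and 0.00393). Its siOGT1 call was lost under the trimmed-mean scaling and without either siNC library or siOGT1 replicate 2 (up to 0.251). TMSB4X, another thymosin, rose by 0.11 with siOGT1 and 0.12 with siOGT2 (adjusted p = 0.0345 and 0.0172). Both calls were lost under the trimmed-mean scaling, the first with any 1 library left out (up to 0.214) and the second without siNC replicate 2 or either siOGT2 library (up to 0.129). TBCEL, which is related to a tubulin folding cofactor and is not known to bind actin although the list holds it, fell by 0.18 with siOGT2 (adjusted p = 0.0227), not without either siNC library or siOGT2 replicate 2 (up to 0.148).

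The list of actins, actinins and myosin II also holds a vinculin and a filamin gene. Of its 13 tested genes, 6 rose and 2 fell with siOGT1, and 8 rose with siOGT2. The siOGT1 count was 4 higher and 1 lower without siNC replicate 2. ACTB, the beta actin gene, stood at 513.5 ± 5.69 FPKM with siOGT1 and 544.6 ± 22.8 with siOGT2, against 420.4 ± 16.4 with siNC (log2 fold changes 0.29 and 0.37, adjusted p = 0.000963 and 0.000131). MYH9, the heavy chain of non-muscle myosin, stood at 207.5 ± 1.32 FPKM with siOGT1 and 208.2 ± 3.71 with siOGT2, against 176.7 ± 0.046 with siNC (adjusted p = 0.000547 and 0.000301). Its regulatory light chain gene MYL9 stood at 124.2 ± 0.302 FPKM with siOGT1 and 119.0 ± 3.05 with siOGT2, against 101.3 ± 4.02 with siNC (adjusted p = 0.000482 and 0.00117). VCL, the adhesion protein vinculin, fell to 34.56 ± 0.646 FPKM with siOGT1 and was at 44.69 ± 0.811 with siOGT2, against 43.48 ± 0.105 with siNC (adjusted p = 0.000153 and 0.372).

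Of 19 filament assembly genes, 3 rose and 1 fell with siOGT1, and 6 rose and 1 fell with siOGT2 (4 and 3 under the trimmed-mean scaling). With siOGT1, 1 was higher without either siNC library, and with siOGT2, 3 were higher without siNC replicate 1. ARPC3 of the Arp2/3 complex rose by 0.22 with siOGT1 (adjusted p = 0.00804), not without siNC replicate 2 (0.0612), and by 0.15 with siOGT2 (adjusted p = 0.0211), not without either siNC library or siOGT2 replicate 1 (up to 0.133). WASF2, which activates that complex, rose by 0.15 with siOGT1 (adjusted p = 0.00829), not without siNC replicate 1 (0.0721). WASL, another activator, fell by 0.19 with siOGT1 (adjusted p = 0.0157), not without siNC replicate 2 or siOGT1 replicate 1 (up to 0.112). With siOGT2, the filament elongation gene VASP rose by 0.24 (adjusted p = 0.00113), the formin gene DIAPH1 by 0.21 (adjusted p = 0.00445) and the Arp2/3 gene ACTR2 by 0.17 (adjusted p = 0.00259).

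Of serum response factor and its coactivators, 1 of 3 was called against siNC, and lower. SRF stood at 14.16 ± 1.42 FPKM with siOGT1 and 14.06 ± 0.371 with siOGT2, against 14.43 ± 0.335 with siNC (adjusted p = 0.786 and 0.674). MRTFA stood at 5.027 ± 0.146 FPKM with siOGT1 and 4.502 ± 0.0613 with siOGT2, against 5.088 ± 0.103 with siNC, and fell with siOGT2 (log2 fold change -0.15, adjusted p = 0.0462), a call lost with any 1 of the 6 libraries left out (up to 0.18). MRTFB stood at 2.212 ± 0.101 FPKM with siOGT1 and 2.743 ± 0.0412 with siOGT2, against 2.337 ± 0.135 with siNC (adjusted p = 0.593 and 0.0631). It was lower with siOGT1 than with siOGT2 (log2 difference -0.22, adjusted p = 0.0381), a call lost with any 1 of the 6 libraries left out (up to 0.173).

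Between the siRNAs 2 of the 74 genes were higher and 9 lower with siOGT1 than with siOGT2, beside 8.35% higher and 8.24% lower of all tested genes. Without siOGT1 replicate 1 or siOGT2 replicate 1 these were 1 and 3, without siOGT2 replicate 2 they were 0 and 2 by limma, and with no filter 1 and 1.

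**Figure D4:**
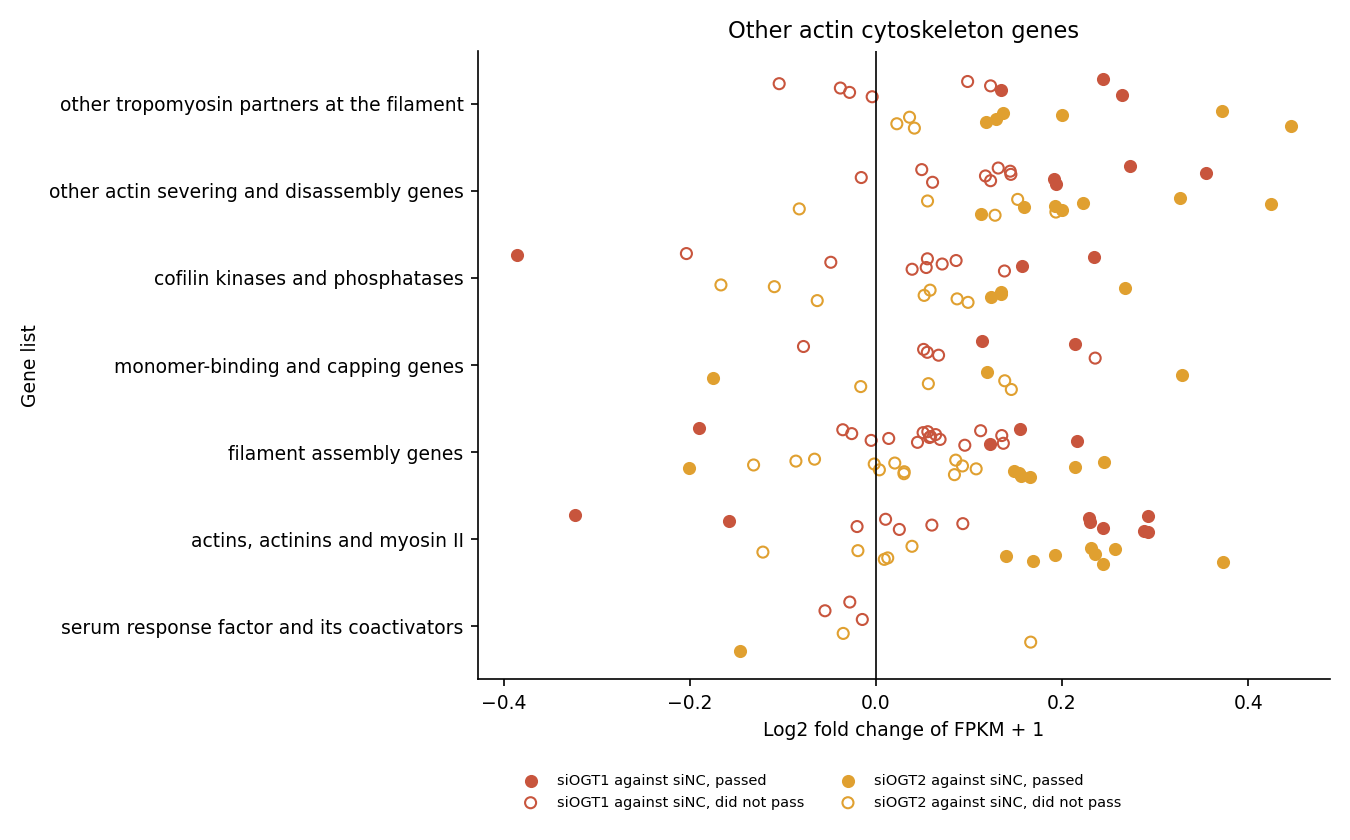
Log2 fold change of FPKM + 1 (x axis) of the 74 tested genes in 7 lists of the actin cytoskeleton (y axis), with siOGT1 and siOGT2 each against siNC; filled points passed the test. Most filled points lie to the right of 0, up to 0.45 for CNN2 with siOGT2, and the point farthest left is TESK1 with siOGT1 at -0.39.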

How the data were processed

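The deposited table holds FPKM values that the authors computed, 1 column per library, for 20036 Ensembl genes. Adapters were trimmed with cutadapt 1.15 and reads aligned to GRCh38 with HISAT2, per the submitters' processing notes; no counting program, annotation or strand setting is named in the sources used. Symbols came from a gene name table (20011 identifiers matched), coordinates from GENCODE release 29.

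Values were log2(FPKM + 1), which understates changes of low genes. A single fit to all 6 libraries gave each group its own mean (limma 3.58.1 in R 4.3.3, intensity trend, 3 residual and 6.31 prior degrees of freedom). Library totals and whole reads were recovered from the FPKM steps, within 0.01 reads for all tested genes. For CFL2, PFN1 and some others the reads are known up to a common factor. Summed over all listed genes, the recovered reads exceeded the recovered total in every library (20351284 against 20152533 in siNC replicate 1). The cause was not tested. The recovered values were used for depth and 1 alternative (voom). The fit was also run on simulated reads with a single fixed spread and known changes. That was a check of the procedure and lends no support to the calls here. The members, heptamers, gene lists and naming rule were chosen with earlier results of these data known. Named were all members, OGT, up to 3 called genes of the smallest p per list and siRNA, and the 5 genes most like TPM4. SRF, MRTFB and the genes like CAP1 were named after their values were seen. So were TMOD2, ROCK2, ACTG1, DAAM1 and ACTG2, for their difference between the siRNAs.

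Of 17 alternative settings, 3 changed the scaling, 2 the pseudocount, 2 the filter, 1 the trend, 1 added the replicate number as a block, 1 used only the groups compared, 1 used voom and 6 left out a library each. A list of leukocyte markers is not reported here.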

Additional observations from a re-analysis of the deposited data

Results flagged for a closer look

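The effect of siOGT1 differed from that of siOGT2, by the test of siOGT1 against siOGT2, for 3 members and the 5 genes like CAP1. Of the 74 tested actin genes in the 7 lists, 9 were also lower and 2 higher with siOGT1. CAP1 differed by -1.23 on the log2 scale, and was picked with that pattern known. The other members were PFN2 at -0.192 (adjusted p = 0.00439) and CFL2 at -0.143 (adjusted p = 0.024). Of the other actin genes, VCL differed by -0.362 (adjusted p = 0.000106), TESK1 by -0.277 (adjusted p = 0.0228), MRTFB by -0.221 (adjusted p = 0.0381), CNN2 by -0.182 (adjusted p = 0.0446), TAGLN2 by -0.167 (adjusted p = 0.00837) and VASP by -0.132 (adjusted p = 0.037). POLR1F at -1.54, GTPBP4 at -0.957, DUSP3 at -0.789, ADAM10 at -0.58 and UBQLN2 at -0.558 were picked for their likeness to CAP1, which fixes this difference. All of these genes were lower with siOGT1. Also lower were TMOD2 at -0.304 (limma, adjusted p = 0.013), ROCK2 at -0.183 (0.0212) and ACTG1 at -0.144 (0.0148). By contrast DAAM1 at 0.260 (limma, adjusted p = 0.00799) and ACTG2 at 0.235 (0.041) were higher with siOGT1. The calls of TMOD2, ROCK2, ACTG1 and ACTG2 were lost with no filter on low values. That of DAAM1 was lost without siOGT2 replicate 2, as were those of ROCK2, ACTG1 and ACTG2, and that of TMOD2 without siOGT2 replicate 1. The trimmed-mean scaling ended the calls of CNN2 and VASP, and equal sums those of VASP and MRTFB. The calls of PFN2 and VCL held under all 17 other settings. Those of CFL2, TESK1, TAGLN2, CNN2, VASP and MRTFB were lost without either siOGT2 library, and also without siOGT1 replicate 1 for CFL2 and TESK1 (adjusted p up to 0.133 for TESK1), either siOGT1 library for CNN2 (up to 0.234), siOGT1 replicate 2 or either siNC library for VASP (up to 0.191) and any other library for MRTFB (up to 0.173); for TAGLN2 the highest was 0.0638.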

How the results depend on the processing

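Over the 10 members and 3 comparisons, 15 results passed and none of these changed sign under the 17 other settings; 9 of them also passed in every setting, and the 6 that did not are given with their genes. Among the 15 are TPM4 against siNC and CAP1 in all 3 comparisons. Their values were known when the set was drawn up, so the tally lends them no support. Without a filter on low values 1138 genes were called with siOGT1 against siNC and 1017 with siOGT1 against siOGT2. Leaving out 1 library gave 945 to 1737 genes (3 to 6 members) for siOGT1 against siNC, 2222 to 3749 (5 to 6 members) for siOGT2 against siNC and 816 to 1533 (2 to 3 members) for siOGT1 against siOGT2; the lone library of an arm is then assumed to vary like the others. Of the results that did not pass, 9 changed sign somewhere. For siOGT1 against siNC, PFN2 was 0.015 under quantile normalization and -0.027 to 0.021 with a library left out, and TPM2 -0.083 to 0.072. For siOGT2 against siNC, TPM3 was -0.0077 under the trimmed mean and TPM2 -0.0069 to 0.17 with a library left out. For siOGT1 against siOGT2, equal sums, the trimmed mean and quantile normalization gave 0.015, 0.013 and 0.0014 for TPM3 and 0.013, 0.011 and 0.012 for TPM4, and quantile normalization -0.00037 for CFL1. With a library left out these ran from -0.017 to 0.014 for TPM3, -0.017 to 0.0083 for TPM4, -0.00036 to 0.017 for CFL1, -0.076 to 0.019 for PFN1 and -0.17 to 0.0013 for TPM2. The cause of these changes was not tested. Under the trimmed mean the median log2 fold change of all genes was 0.0019 with siOGT1 and 0.0028 with siOGT2, in place of 0.0318 and 0.0453. Same-numbered libraries did not deviate together (correlations -0.0218, -0.0262 and 0.0494); with the replicate number as a block 1773, 3636 and 1674 genes were called, with 6, 6 and 3 members. With 2 libraries per group, small changes may be missed.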
